A study of Danio rerio with 2 samples.

Results

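Cell cycle genes were followed across single cells sorted from the tails of zebrafish embryos. The genes were chosen by name: 32 names, 14 of enzymes and helicase subunits used in S phase and 18 of kinases, cyclins, motors and chromatin proteins used in G2 and mitosis (G2/M). Of these, 24 had a row in the tables of both plates, on 26 Ensembl identifiers of the 22342 in the tables, because mcm6 and rrm2 each fell on 2 identifiers. They gave 13 S-phase rows (11 of 14 names) and 13 G2/M rows (13 of 18 names). The names stmn1a, hmgb2a and birc5a had no symbol in the name table used here, and mcm2, mcm7, dut, cdc20 and ube2c are not analysed here.

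The cells came from embryos at 3 days post-fertilization (dpf) that carried mpeg1:EGFP, in which the mpeg1 promoter drives green fluorescence in macrophages, and runx1+23:mCherry, in which the runx1+23 enhancer drives red fluorescence in hematopoietic stem and progenitor cells (HSPCs). Each live cell was sorted into 1 well of a plate of 384 wells and its RNA was counted by SORT-seq, a plate-based method that tags every captured molecule with a unique molecular identifier (UMI). The EGFP+mCherry+ gate (mCherry+) filled wells 1 to 192 and the EGFP+mCherry- gate (mCherry-) filled wells 193 to 384 of each of 2 plates, so each gate had its own side of a plate. Both gates carried both transgenes, the plates are the only replicates, and the labels do not say whether they came from separate clutches. With the plate as a block, p-values rest on how gate differences varied between these 2 plates only, with variances shared across genes.

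Cells that divide copy their DNA in S phase and separate the copies in mitosis, and the transcripts of each step rise and fall with it. S-phase genes encode the helicase that opens the DNA, the clamp and ligase that finish the new strand, and the enzymes that make its nucleotides. G2/M genes encode the kinases, cyclins, checkpoint proteins and motors that build and control the spindle. In the caudal hematopoietic tissue of the embryo's tail, HSPCs multiply beside macrophages and other blood cells, whereas mature skeletal muscle fibers have left the cycle.

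Of 768 wells, 534 had at least 500 UMIs and 200 detected genes and were kept: 143 mCherry+ and 151 mCherry- wells on plate 1, and 123 mCherry+ and 117 mCherry- wells on plate 2. Their median depth lay between 7934 and 10839 UMIs per gate and plate. No well of plate 1 was identical to a well of plate 2. Clustering without the 114 rows matched to the cell cycle lists gave 213 macrophage-like wells, 126 neutrophil-like wells, 14 muscle-like wells and 5 clusters that could not be named. Cycle-related rows outside the lists, such as STMN1 and BIRC5, were not left out, so the clusters were not fully independent of the cycle. Macrophage markers summed to 16131 CPM (the UMIs of a gene or list scaled to 1000000 UMIs of the wells) in macrophage-like wells, against 1225 in neutrophil-like wells, 499 in cluster 3 and 1700 in cluster 8, so the markers of the labelled cell type were low in many sorted wells. Cluster 8 (37 wells) was led by blf, RHAG and SLC4A1 and also by MYB, cd34 and the member PCNA, with 8 of 11 erythroid and 4 of 10 progenitor markers raised. Cluster 3 (75 wells) was led by si:ch211-214p16.1, si:ch211-222l21.1, hmga1a and cd34. Cluster 9 (15 wells) was led by collagen genes, and clusters 7 and 11 were shallow, with medians of 982 and 1362 UMIs.

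Among the classes other than the shallow clusters 7 and 11, the members were most abundant in clusters 8 and 3. These clusters were 112 of the 534 wells and held 19.7% of all UMIs, but 51.7% of the 4300 S-phase UMIs and 52.4% of the 4862 G2/M UMIs. The macrophage-like wells held 38.4% of all UMIs, 23.6% of the S-phase UMIs and 24.5% of the G2/M UMIs. Since the clusters were drawn from these same cells, levels between them are given as a description with no test. Of the 26 rows, 22 had at least 50 UMIs in the kept wells, 10 S-phase and 12 G2/M. The other rows were mcm3 (4 UMIs), the mcm6 identifier ENSDARG00000033231 (6 UMIs), the rrm2 identifier ENSDARG00000078069 (31 UMIs) and ccna2, a cyclin of S phase and G2 (14 UMIs).

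The S-phase list as a whole stood at 2388 CPM in cluster 8 and 1518 in cluster 3, against 449 in macrophage-like wells, 673 in neutrophil-like wells, 567 in cluster 9 and 63 in muscle-like wells. Exact Poisson intervals, which cover counting error only, ran from 2260 to 2522 in cluster 8, from 1422 to 1619 in cluster 3, from 422 to 478 in macrophage-like wells and from 47 to 83 in muscle-like wells. On plate 1 the order was cluster 8 (2548), cluster 3 (1090), neutrophil-like (780) and macrophage-like (382), while on plate 2 cluster 3 (2862) stood above cluster 8 (1304, only 4 wells), followed by macrophage-like (490) and neutrophil-like wells (423). Thus both clusters were above the mature myeloid classes on each plate, but the order within each pair changed between plates.

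For G2/M members the highest class, with clusters 7 and 11 left aside, was cluster 3. It held 2357 CPM (2236 to 2482), cluster 8 held 2039 (1920 to 2162), cluster 9 held 936 (829 to 1054), macrophage-like wells 527 (498 to 558), neutrophil-like wells 506 (466 to 549) and muscle-like wells 172 (145 to 203). Cluster 3 gave 2373 on plate 1 and 2306 on plate 2, and cluster 8 gave 1993 on plate 1 and 2351 on plate 2, so these 2 clusters changed places between plates. Macrophage-like and neutrophil-like wells overlapped within their counting intervals. Cluster 11 stood higher than cluster 3, at 2577 CPM (2049 to 3198), but all of its 82 G2/M UMIs were in its 1 well on plate 1, and its 12 wells on plate 2 had 0. Cluster 7 held 234 (162 to 328).

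**Figure D1:**
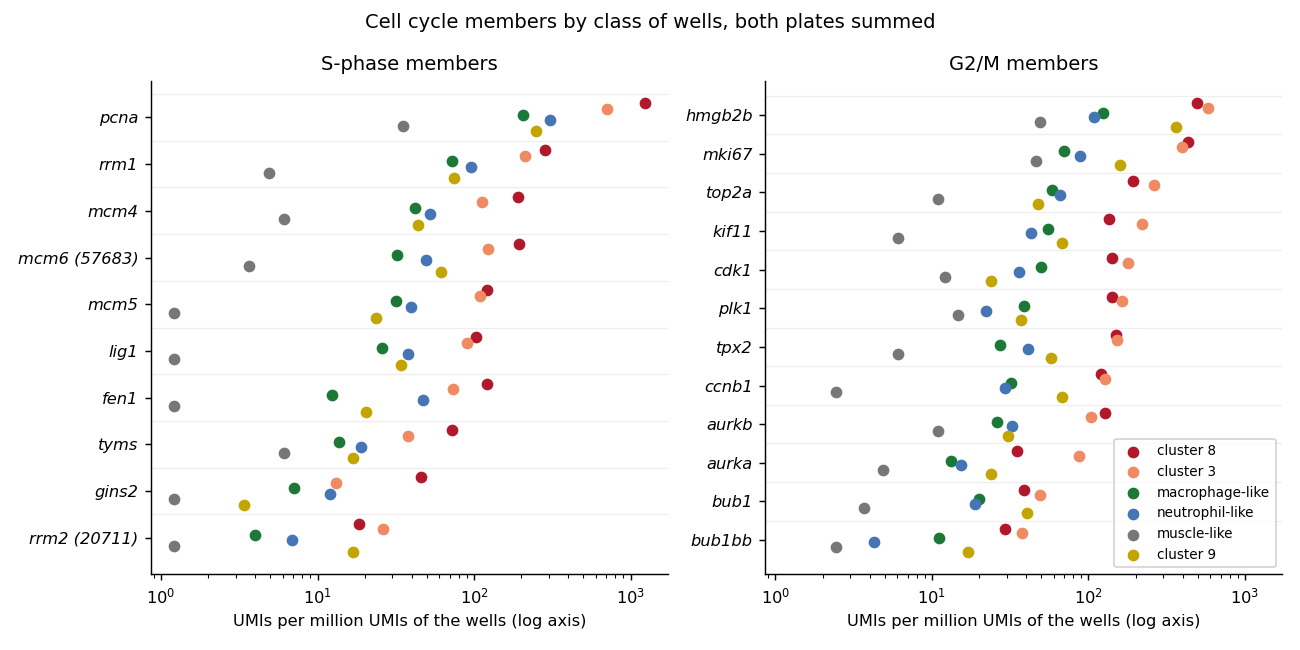
Level of each member in CPM (x axis, log scale) for the 10 S-phase members (left) and 12 G2/M members (right) with at least 50 UMIs. Each point is a class of wells, with both plates summed and the shallow clusters 7 and 11 left out, and numbers after mcm6 and rrm2 are the last digits of the identifier. The points of clusters 8 and 3 lie to the right of those of macrophage-like and neutrophil-like wells for every member shown.

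Every one of the 10 S-phase members with at least 50 UMIs was more abundant in cluster 8 and in cluster 3 than in macrophage-like wells, on both plates. The share of all genes that did the same was not measured, so how unusual this count is cannot be told. Cluster 8 had only 4 wells on plate 2, so its levels there rest on few UMIs. On that plate gins2 had 14.3 CPM in cluster 8 and 10.1 in macrophage-like wells. The fold over macrophage-like wells ranged from 3.81 to 9.78 in cluster 8 (median 4.92) and from 1.85 to 6.57 in cluster 3 (median 3.44). The sliding clamp pcna was the most abundant, with 1227 CPM in cluster 8, 706 in cluster 3, 205 in macrophage-like wells, 305 in neutrophil-like wells and 35.3 in muscle-like wells. The flap endonuclease fen1, which trims the lagging strand, had the lowest level in macrophage-like wells relative to cluster 8, with 121 CPM in cluster 8, 73.7 in cluster 3, 12.4 in macrophage-like wells and 47.0 in neutrophil-like wells. Cluster 8 was above cluster 3 for 9 of the 10. The exception was rrm2 (ENSDARG00000020711), the small subunit of ribonucleotide reductase, with 18.4 CPM in cluster 8, 26.2 in cluster 3 and 4.0 in macrophage-like wells.

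All 12 G2/M members with at least 50 UMIs were likewise above macrophage-like wells on both plates, by 1.94-fold to 6.24-fold in cluster 8 (median 3.47) and by 2.46-fold to 6.53-fold in cluster 3 (median 4.12). On plate 2, 1 of the 4 cluster 8 wells held 125 of their 164 G2/M UMIs. Clusters 7 and 11 aside, cluster 3 was the highest class for 10 of the 12. For these counts too, the share of all genes was not measured. Aurora kinase A, aurka, which acts at the spindle poles, had 35.0 CPM in cluster 8, 86.8 in cluster 3, 13.3 in macrophage-like wells and 15.4 in neutrophil-like wells. The proliferation marker mki67 and the chromosomal passenger kinase aurkb were the 2 that were highest in cluster 8. For mki67 the levels were 434 CPM in cluster 8, 393 in cluster 3, 69.6 in macrophage-like wells and 88.1 in neutrophil-like wells. The chromatin protein hmgb2b was the most abundant G2/M member, with 495 in cluster 8, 581 in cluster 3, 363 in cluster 9, 125 in macrophage-like wells and 48.7 in muscle-like wells.

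To score wells at equal depth, the 470 kept wells with at least 2000 UMIs were each thinned to 2000 UMIs. A well was called S positive with at least 3 UMIs of at least 2 S-phase members, G2/M positive with at least 3 UMIs of at least 2 G2/M members, and cycling if it was either. By this measure 131 of 470 wells were cycling (27.9%, 95% Clopper-Pearson interval 23.9 to 32.2), of which 52 were S positive only, 52 were G2/M positive only and 27 were both. Without thinning 52.6% of the same wells passed, so the share depends on depth. Of the 470 wells, 60 lay near the minimum, with 2 or 3 UMIs of one list and at most 3 of the other, and 192 had no UMI of either list.

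Cycling wells were most frequent in cluster 8 (27 of 35 wells, 77.1%, 59.9 to 89.6) and in cluster 3 (37 of 64, 57.8%, 44.8 to 70.1). The shares were 16.7% in macrophage-like wells (35 of 210, 11.9 to 22.4), 20.2% in neutrophil-like wells (24 of 119, 13.4 to 28.5), 26.7% in cluster 9 (4 of 15, 7.79 to 55.1) and 9.09% in muscle-like wells (1 of 11, 0.23 to 41.3). The macrophage-like share was not above the neutrophil-like share, with median depths of 10557 and 8726 UMIs among these wells, and the 2 intervals overlap. The cycling shares of clusters 8 and 3 lie above both intervals. Clusters 3 and 8 together held 64 of the 131 cycling wells (48.9%).

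Wells positive for both lists were counted by class, as a description with no test. In cluster 8, 14 of 35 wells were positive for both lists, 8 for S phase only and 5 for G2/M only, and in macrophage-like wells 2 of 210 were positive for both, 15 for S phase only and 18 for G2/M only. In cluster 3 the counts were 9 of 64 for both, 13 for S phase only and 15 for G2/M only, and in neutrophil-like wells 2 of 119, 11 and 11. The counts of wells positive for both go with the shares of wells positive for each list. Within a class, S-phase and G2/M UMIs of thinned wells were compared across 35, 64, 210 and 119 wells that share libraries. Pearson r was -0.15 in cluster 8, -0.10 in cluster 3, 0.06 in macrophage-like and 0.17 in neutrophil-like wells. Spearman values, taken on ranks, were 0.06, 0.11, 0.15 and 0.32 in the same order. The sign in clusters 8 and 3 thus depended on the measure. At least 10 G2/M UMIs in 2000 were reached by 11 cluster 3 wells, 3 macrophage-like wells and 1 cluster 8 well, but by no neutrophil-like well. At least 10 S-phase UMIs were reached by 5 wells of cluster 8, 5 of cluster 3 and none of the macrophage-like or neutrophil-like wells, whose highest values were 9 and 8.

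**Figure D2:**
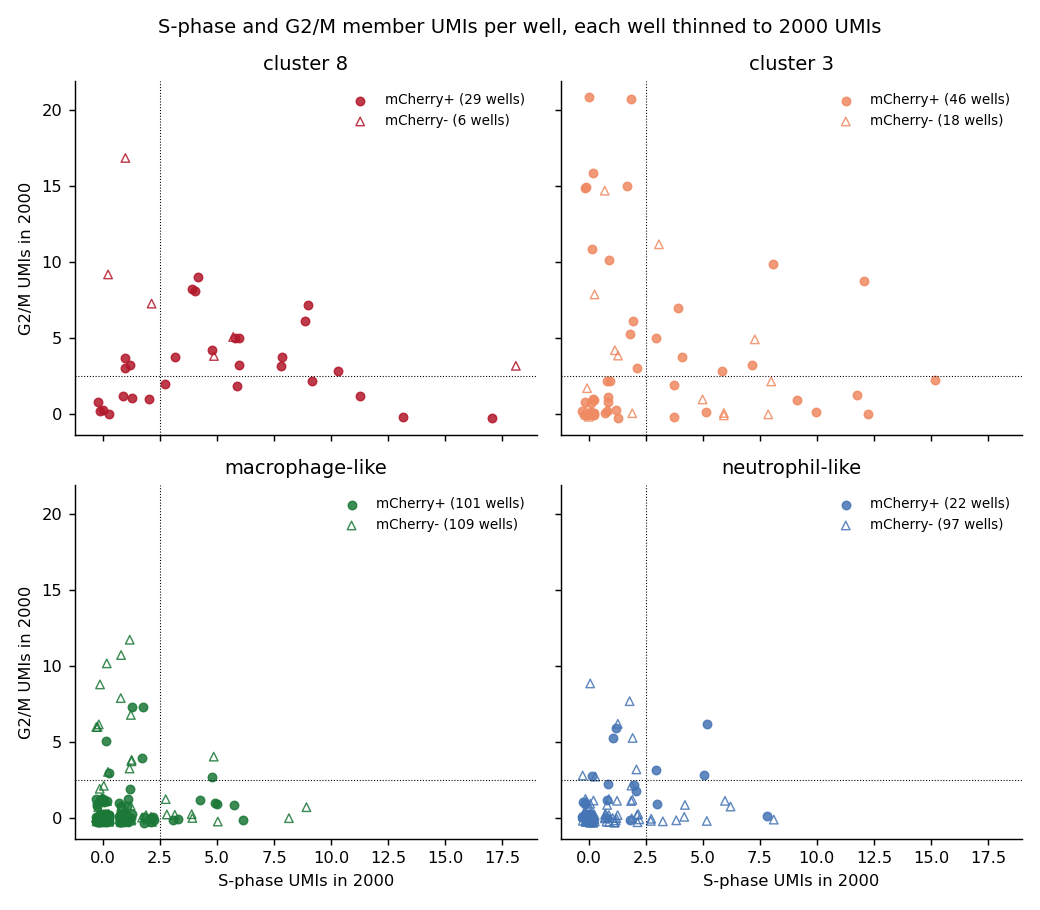
S-phase UMIs (x axis) and G2/M UMIs (y axis) in each well after thinning to 2000 UMIs, with 1 point per well, filled circles for mCherry+ and open triangles for mCherry- wells, moved by up to 0.3 UMIs so that points do not hide each other. Dotted lines mark the minimum of 3 UMIs. Most macrophage-like and neutrophil-like wells lie near 0 on both axes, and most of their wells above a line lie along 1 axis. The exceptions are the 2 macrophage-like and 2 neutrophil-like wells positive for both lists, and 1 more neutrophil-like well. That well had 3 UMIs of each list but was not S positive, since the lines do not show the minimum of 2 members.

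The scored wells were checked with genes that took no part in the score. A list of 30 other rows of replication genes summed to 1818 CPM in the S-positive wells and 206 in the wells positive for neither on plate 1, and to 1845 and 200 on plate 2. A list of 35 other rows of mitotic genes summed to 3211 CPM in the G2/M-positive wells and 237 in the wells positive for neither on plate 1, and to 3590 and 190 on plate 2. Within macrophage-like wells the same lists gave 1610 in 4 S-positive wells and 210 in 74 wells positive for neither on plate 1, and 3962 in 13 G2/M-positive wells and 206 in 101 wells positive for neither on plate 2. The wells scored as cycling thus carried the other genes of the same phase at several times the level of the rest, on both plates and also among macrophage-like wells. Genes of the other phase were raised too. S-positive wells held the mitotic list at 2102 CPM on plate 1 and 1036 on plate 2, and G2/M-positive wells held the replication list at 1038 and 1050. Wells positive for both lists are in both sums, so the check bears on cycling and does not separate the phases. G1 regulators (13 rows, with cyclins D, their kinases and E2F factors) stood at 386 CPM in S-positive wells and 90.0 in wells positive for neither on plate 1, and at 244 and 79.2 on plate 2. Without clusters 3 and 8 they stood at 183 and 84.6 on plate 1 and at 177 and 79.1 on plate 2. In macrophage-like wells they stood at 91.1 and 73.2 on plate 1 and at 198 and 94.6 on plate 2.

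A list of genes that restrain the cycle had lower sums in wells positive for a phase in most, but not all, cases. The inhibitor list (10 rows) summed to 2363 CPM in S-positive wells and 4143 in wells positive for neither on plate 1, and to 3711 and 4720 on plate 2. In G2/M-positive wells it summed to 2431 on plate 1 and 3384 on plate 2, also below the wells positive for neither. Within clusters 3 and 8 on plate 1 it was 1760 in S-positive wells, 1869 in G2/M-positive wells and 2057 in wells positive for neither. Without these clusters it was 3569, 3180 and 4462 there. On plate 2 it was 2543, 2268 and 4292 (5 wells positive for neither) within the clusters, and 4207, 3969 and 4727 without them. Most of the list came from the antiproliferative genes btg1 and btg2 and from ccng1, a p53 target. The inhibitor cdkn1a, at low levels, did not follow the list. On plate 1 it had 33.8 CPM in S-positive wells, 26.7 in G2/M-positive wells and 9.11 in wells positive for neither. On plate 2 it had 10.6, 27.9 and 20.1 in the same order. The level of btg1 also followed the class of the well, with 719 CPM in cluster 8 and 724 in cluster 3, against 2414 in macrophage-like wells, and the part of the class in these sums was not tested. In macrophage-like wells of plate 1 the inhibitor list was 6425 in the 4 S-positive wells, 5850 in G2/M-positive wells and 6196 in wells positive for neither, and on plate 2 it was 4718, 4139 and 6059. The S-positive difference thus changed sign between plates there, resting on 4 wells of plate 1, and the G2/M-positive difference did not.

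The gates were compared by plate, since wells of 1 plate are not replicates of the sort. On plate 1 the cycling share was 43.1% in mCherry+ wells (53 of 123, 34.2 to 52.3) and 19.3% in mCherry- wells (27 of 140, 13.1 to 26.8). On plate 2 it was 18.9% in mCherry+ wells (20 of 106, 11.9 to 27.6) and 30.7% in mCherry- wells (31 of 101, 21.9 to 40.7). The share was therefore higher in mCherry+ wells on plate 1 and lower on plate 2. These wells had median depths of 11774 and 12149 UMIs in mCherry+ and 8913 and 8639 UMIs in mCherry- on plates 1 and 2 before thinning. The mean of the plates was 31.0% ± 17.1 in mCherry+ wells and 24.99% ± 8.07 in mCherry- wells (SD, n = 2 plates), a difference smaller than the spread between plates, and 2 plates against 2 allow no exact permutation p under 0.05.

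Scores per well, as CPM of a list in the well, were taken over all kept wells. The median S-phase score was 434 in mCherry+ wells of plate 1 and 197 in those of plate 2, against 177 and 188 in mCherry- wells. The median G2/M score was 294 in mCherry+ wells of plate 1 and 73.6 in those of plate 2, against 94.9 and 101 in mCherry- wells. Both medians were highest in the mCherry+ wells of plate 1, and the mean of the plates was 316 ± 168 in mCherry+ and 182 ± 7.49 in mCherry- for S phase, and 184 ± 156 in mCherry+ and 97.8 ± 4.02 in mCherry- for G2/M (SD, n = 2 plates). The highest score of a well was 8044 for S phase and 9005 for G2/M, both in mCherry+ wells of cluster 3, and 149 wells had no S-phase UMI and 211 no G2/M UMI.

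The clusters rich in members were unevenly spread over gates and plates. Cluster 8 had 27 mCherry+ and 6 mCherry- wells on plate 1 and 2 mCherry+ and 2 mCherry- wells on plate 2, and cluster 3 had 40 mCherry+ and 17 mCherry- wells on plate 1 and 13 mCherry+ and 5 mCherry- wells on plate 2. Of the cycling wells, 39 of 53 mCherry+ wells on plate 1 were in these 2 clusters, against 12 of 27 mCherry- wells, and on plate 2 it was 8 of 20 mCherry+ wells against 5 of 31 mCherry- wells. Inside the clusters the cycling share on plate 1 was 62.9% (62 mCherry+ wells) and 63.2% (19 mCherry- wells), and on plate 2 it was 8 of 13 mCherry+ wells and 5 of 5 mCherry- wells. Without the clusters the shares on plate 1 were 23.0% in mCherry+ wells (13.2 to 35.5) and 12.4% in mCherry- wells (7.11 to 19.6). On plate 2 they were 12.9% in mCherry+ wells (6.85 to 21.5) and 27.1% in mCherry- wells (18.5 to 37.1). The sign of the gate difference on each plate was kept, but the intervals overlap on both plates. Of the 14 cycling mCherry+ wells left on plate 1, 8 were neutrophil-like, so these sets still mix classes.

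**Figure D3:**
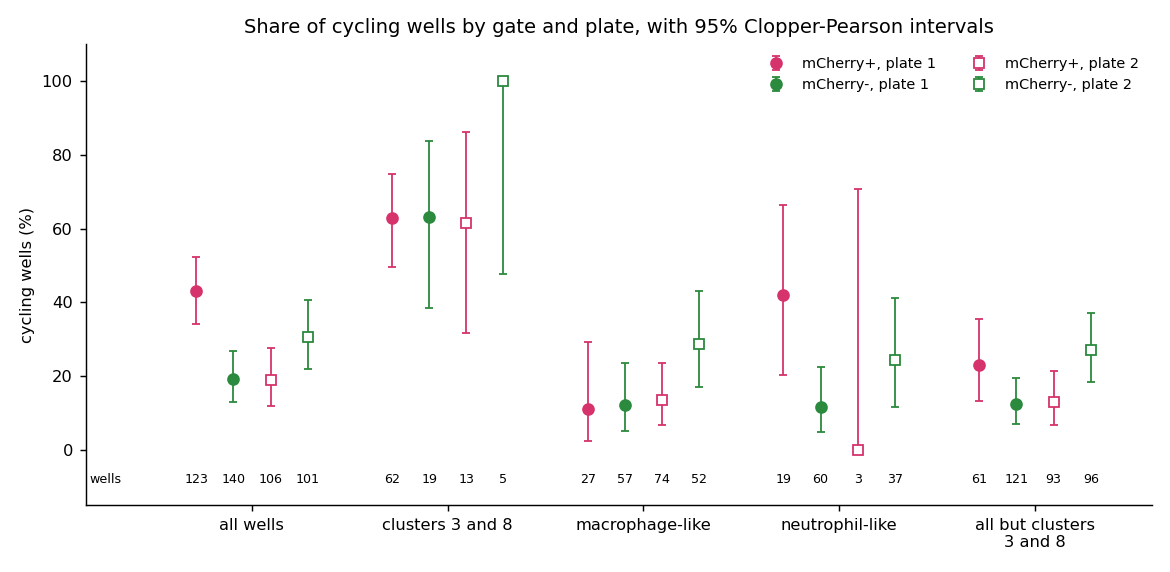
Percent of cycling wells (y axis) for each group of wells (x axis) by gate and plate, with 95% Clopper-Pearson intervals that cover counting error only and the number of wells below each point. Filled circles are plate 1 and open squares are plate 2. In all wells mCherry+ lies above mCherry- on plate 1 (43.1% and 19.3%) and below it on plate 2 (18.9% and 30.7%).

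In macrophage-like wells on plate 1 the cycling share was 11.1% of 27 mCherry+ wells (2.35 to 29.2) and 12.3% of 57 mCherry- wells (5.08 to 23.7). On plate 2 it was 13.5% of 74 mCherry+ wells (6.68 to 23.5) and 28.8% of 52 mCherry- wells (17.1 to 43.1). The gates differed little on plate 1, and on plate 2 the intervals overlap. Different clusters filled this class in the 4 sets: on plate 1, cluster 4 gave 16 of the 28 in mCherry+ and 54 of the 57 in mCherry-, cluster 5 gave 45 of 75 mCherry+ wells on plate 2, and cluster 1 gave 50 of 53 mCherry- wells on plate 2. Within cluster 1 on plate 2, 2 of 30 mCherry+ wells (6.67%, 0.82 to 22.1) and 15 of 49 mCherry- wells (30.6%, 18.3 to 45.4) were cycling. All 9 G2/M-positive wells of cluster 1 on plate 2 were mCherry-. Within cluster 5 on plate 2, 8 of 44 mCherry+ wells (18.2%, 8.19 to 32.7) and 0 of 3 mCherry- wells were cycling. There, 4 mCherry+ wells were G2/M positive. Neutrophil-like wells had 8 cycling of 19 mCherry+ wells and 7 of 60 mCherry- wells on plate 1, but 0 of 3 mCherry+ wells and 9 of 37 mCherry- wells on plate 2, where 3 wells allow no comparison.

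Single members were then tested between gates on UMIs summed over all kept wells of a gate on a plate, with the plate as a block. None of the 23 members tested, 11 S-phase and 12 G2/M, passed an adjusted p of 0.05 in the quasi-likelihood test of edgeR, where 4.75% of the 9904 genes tested did (2.42% higher and 2.32% lower in mCherry+). At an unadjusted p under 0.05 there were 2 members, both of them rrm2 identifiers (17.9% of all genes), and the DESeq2 Wald test called none of the 8 S-phase and 12 G2/M members to which it gave an adjusted p, with 0 of 23 at an unadjusted p under 0.05. In such sums fewer cells of a type and less RNA per cell cannot be told apart. All 11 S-phase members had a positive log2 fold change, as did 5128 of the 9904 genes tested. Their median was 0.56 (range 0.06 to 3.03), against a median of 0.03 over all genes. On plate 1 all 11 were higher in mCherry+ (5154 of all genes), and on plate 2 it was 7 of 11 (4933 of all genes). Among the 11, the 2 rrm2 rows passed the filter on low counts through their mCherry+ sums only, so their direction was largely set by the filter. With no filter the S-phase median was 0.35 over 13 rows. The G2/M members were split 8 positive to 4 negative (median 0.10, range -0.49 to 0.35). Without clusters 3 and 8 the S-phase median was -0.11.

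Among the helicase subunits, mcm4 (ENSDARG00000040041) had levels of 87.7 CPM on plate 1 and 43.5 CPM on plate 2 for mCherry+, against 50.0 and 45.3 for mCherry-. For mcm5 (ENSDARG00000019507) it was 59.8 and 36.1 in mCherry+, against 32.1 and 52.5 in mCherry-. The abundant mcm6 identifier (ENSDARG00000057683) gave 82.7 and 46.3 in mCherry+, against 35.8 and 61.8 in mCherry-. All 3 were higher in mCherry+ on plate 1 and lower on plate 2, so the gates overlapped. The partner of this helicase gins2 (ENSDARG00000002304) had 18.4 and 9.59 in mCherry+, against 5.97 and 7.21 in mCherry-, without overlap.

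At the fork, pcna (ENSDARG00000054155) gave 556 and 271 CPM in the mCherry+ sums, against 267 and 212 in the mCherry- sums. The gates were separated only by a small margin (271 against 267), and the log2 fold change was 0.59 (SE 0.34, edgeR adjusted p 0.426). The nuclease fen1 (ENSDARG00000011404) gave 61.5 and 21.4 in mCherry+, against 26.1 and 20.6 in mCherry-, and DNA ligase 1, lig1 (ENSDARG00000060041), gave 54.2 and 36.1 against 29.9 and 35.0. Values of fen1 overlapped between gates, and those of lig1 were separated by a small margin.

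The enzymes of nucleotide supply included rrm1, tyms and the 2 rrm2 identifiers. Both rrm2 identifiers were found mostly in mCherry+ wells, although neither passed the threshold. Both rows passed the filter on low counts through their mCherry+ sums only, so the direction and size of their differences were largely set by it. The counting intervals below pool the plates and do not test a difference between gates. The identifier ENSDARG00000020711 had 25 and 19 UMIs in the mCherry+ sums, against 3 and 3 in the mCherry- sums, or 44 UMIs in 28 wells against 6 UMIs in 6 wells. The ratio of CPM was 4.76 with a counting interval of 2.02 to 13.7, and the fitted log2 fold change was 2.07 (SE 0.72, edgeR adjusted p 0.152). The identifier ENSDARG00000078069 had 14 and 15 UMIs in the mCherry+ sums, against 2 and 0 in the mCherry- sums, a ratio of 9.40 (2.38 to 81.3, edgeR adjusted p 0.182). Neither gate overlapped the other for these identifiers, which may share reads if they are near-identical copies, so the split between them is uncertain. Of its UMIs, ENSDARG00000020711 had 16 in cluster 3, 10 in cluster 8, 9 in macrophage-like and 8 in neutrophil-like wells. For ENSDARG00000078069 these were 8, 6, 2 and 9. Neither identifier was tested within macrophage-like wells, and the part of the class in the gate difference was not tested.

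The large subunit rrm1 (ENSDARG00000014017) gave 159 and 65.5 CPM in mCherry+, against 81.4 and 84.5 in mCherry-, with overlap. Thymidylate synthase, tyms (ENSDARG00000042894), gave 33.5 and 19.2 in mCherry+, against 14.2 and 13.4 in mCherry-, without overlap. In all, both mCherry+ sums were above both mCherry- sums for 6 of 11 S-phase members and for 27.3% of all genes tested. No S-phase member showed the reverse, which 19% of all genes did. The 6 include both rrm2 rows, which passed the filter on low counts through their mCherry+ sums only, so their order was largely set by it. They also include pcna and lig1, which were separated by small margins.

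The G2/M members all overlapped between gates, because nearly all were higher in mCherry+ on plate 1 and lower on plate 2. For mki67 (ENSDARG00000091150) the levels were 241 and 85.8 CPM in mCherry+, against 84.4 and 148 in mCherry-. Topoisomerase 2 alpha, top2a (ENSDARG00000024488), which untangles the copied DNA, gave 144 and 30.5 in mCherry+, against 75.4 and 103 in mCherry-. Both were above mCherry- on plate 1 and below it on plate 2. The chromatin protein hmgb2b (ENSDARG00000053990) gave 310 and 142 in mCherry+, against 163 and 176 in mCherry-.

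The kinases that drive entry into mitosis behaved alike. The master kinase cdk1 (ENSDARG00000087554) gave 101 and 30.5 CPM in mCherry+, against 51.5 and 69.0 in mCherry-, and its partner cyclin B1, ccnb1 (ENSDARG00000051923), gave 71.5 and 31.0 against 28.4 and 63.9. Polo-like kinase 1, plk1 (ENSDARG00000058471), gave 84.4 and 37.8 in mCherry+, against 25.4 and 69.0 in mCherry-. For all 3 the mCherry+ sum of plate 1 was the highest of the 4 sums, and on plate 2 mCherry+ was below mCherry-.

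Spindle and checkpoint genes repeated the pattern. Aurora kinase B, aurkb (ENSDARG00000037640), gave 78.2 and 19.2 CPM in mCherry+, against 32.9 and 33.0 in mCherry-, and aurka (ENSDARG00000012485) gave 43.6 and 11.3 against 15.7 and 20.6. The spindle assembly factor tpx2 (ENSDARG00000078654) gave 90.0 and 26.0 in mCherry+, against 35.1 and 58.7 in mCherry-, and the motor kif11 (ENSDARG00000010948), which pushes the poles apart, gave 110 and 37.8 against 35.8 and 107. The checkpoint kinase bub1 (ENSDARG00000077029) gave 26.8 and 15.2 in mCherry+, against 18.7 and 33.99 in mCherry-. Its relative bub1bb (ENSDARG00000074927) gave 16.2 and 13.0 in mCherry+, against 8.22 and 13.4 in mCherry-, the only one with almost equal gates on plate 2.

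Taken per plate, 11 of 12 G2/M members tested were higher in mCherry+ on plate 1 and lower on plate 2 (91.7%), as were 4 of 11 S-phase members (36.4%) and 19.6% of all genes tested. The G2/M median was 0.98 on plate 1 and -0.88 on plate 2, and the S-phase median was 0.90 on plate 1 and 0.10 on plate 2, on the log2 scale. These values of single plates have no test. The wells that held the UMIs were few: 16 of 266 mCherry+ wells and 11 of 268 mCherry- wells held at least 50% of the G2/M UMIs of their gate.

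**Figure D4:**
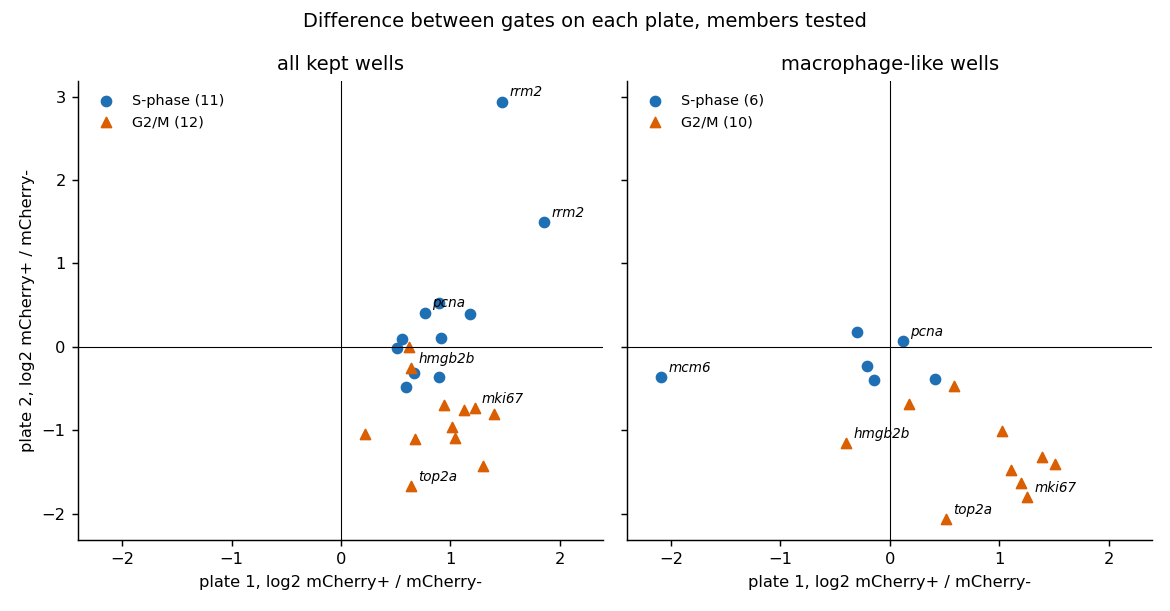
Log2 ratio of mCherry+ to mCherry- on plate 1 (x axis) and plate 2 (y axis) for each member tested, over all kept wells (left, 11 S-phase and 12 G2/M members) and macrophage-like wells (right, 6 and 10). Points in the lower right quadrant were higher in mCherry+ on plate 1 and lower on plate 2, which holds 11 of 12 G2/M members on the left and 9 of 10 on the right.

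Within macrophage-like wells, 16 members could be tested, and none passed an adjusted p of 0.05 in edgeR, where 5.7% of 5298 genes did (3.02% higher and 2.68% lower in mCherry+). At an unadjusted p under 0.05 there was 1 member, hmgb2b, against 17.9% of all genes, and DESeq2 called none of the 2 S-phase and 4 G2/M members to which it gave an adjusted p, with 0 of 16 at an unadjusted p under 0.05. The chromatin gene hmgb2b had 98.3 CPM on plate 1 and 89.4 CPM on plate 2 for mCherry+, against 124 and 203 for mCherry-, without overlap (log2 fold change -0.84, SE 0.33, edgeR adjusted p 0.186). It was the only member of the 16 whose gates did not overlap, and both mCherry+ sums were below both mCherry- sums for 21.4% of all genes tested. The clamp pcna gave 193 and 227 in mCherry+, against 168 and 215 in mCherry-, with overlap (log2 fold change 0.09, SE 0.28).

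The mitotic members of macrophage-like wells changed sign between plates as well. For mki67 the sums were 94.7 and 40.2 CPM in mCherry+, against 35.7 and 149 in mCherry-, and for top2a they were 91.0 and 22.4 against 59.5 and 104. The motor kif11 gave 61.9 and 39.1 in mCherry+, against 25.5 and 114 in mCherry-. In each case the highest sum was mCherry- of plate 2. The median of the 10 G2/M members tested was -0.51 (range -0.88 to 0.05), from 1.07 on plate 1 and -1.36 on plate 2, and that of the 6 S-phase members was -0.13.

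A few macrophage-like wells carried most of these G2/M UMIs. Of 1190 G2/M UMIs, 77.1% were in the 15 of 213 wells that had at least 20, and 1 mCherry+ well on plate 1 held 112 of the 165 G2/M UMIs of its set (67.9%). In the mCherry- wells of plate 2, 8 of 53 wells held 89.1% of 470 G2/M UMIs, whereas in the mCherry+ wells of plate 2, 3 of 75 wells held 72.3% of 329. S-phase UMIs were spread wider, with 42.9% of 1013 in 14 wells of at least 20. When the well with the most member UMIs was left out of each sum, top2a passed the threshold (log2 fold change -1.94, edgeR adjusted p 0.018, 12 members tested), but the wells had been chosen by the UMIs under test. Over its 9 alternatives the adjusted p of top2a ranged between 0.018 and 0.887 and passed in 2.

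**Figure D5:**
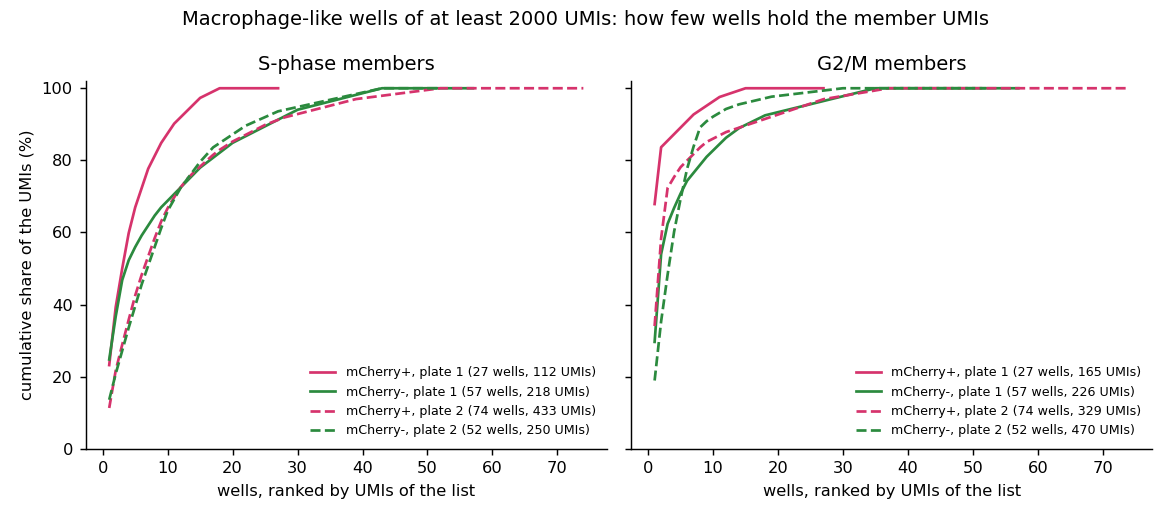
Cumulative percent of the S-phase UMIs (left) and G2/M UMIs (right) of macrophage-like wells of at least 2000 UMIs (y axis) against the number of wells, ranked from the most UMIs (x axis), by gate and plate. The G2/M curves climb faster than the S-phase curves, and in mCherry+ wells of plate 1 a single well holds 67.9% of the G2/M UMIs.

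The other genes of the pathway showed the same absence of calls in most lists. Over all kept wells 0 of 26 other S-phase genes and 0 of 29 other G2/M genes passed the edgeR threshold, with 2 and 0 at an unadjusted p under 0.05, against 4.75% and 17.9% of all genes tested. The other G2/M genes were higher in mCherry+ on plate 1 and lower on plate 2 in 26 of 29 cases, against 19.6% of all genes tested. Of 10 G1 regulators 1 rose, where 2.42% of all genes tested did. It was the kinase partner of cyclin D cdk6, with 69.3 and 15.8 CPM in mCherry+, against 11.2 and 3.09 in mCherry- (log2 fold change 2.35, SE 0.49, edgeR adjusted p 0.029). It was higher in mCherry+ on each plate and stood at 140 CPM in cluster 8 and 93.3 in cluster 3, against 3.55 in macrophage-like wells. The call was lost in the DESeq2 test (adjusted p 0.089), without the muscle-like wells (edgeR adjusted p 0.085) and with no replicate block (edgeR adjusted p 0.217), and the adjusted p ranged from 0.0015 to 0.217 over 7 alternatives. The log2 fold change stayed between 2.29 and 2.51 in all 7. Over all kept wells pcna had 9 alternatives, so cdk6 was without a value in some of them. The part of the class in the gate difference of cdk6 was not tested. None of 9 inhibitors passed over all wells, where 1 had an unadjusted p under 0.05, and DESeq2 called none of the genes of these 4 lists to which it gave an adjusted p, with 1 G1 regulator and no other gene of the lists at an unadjusted p under 0.05.

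In macrophage-like wells 0 of 8 other S-phase genes, 0 of 17 other G2/M genes and 0 of 1 G1 regulators passed in edgeR. At an unadjusted p under 0.05 there were 0, 1 and 0. Of all genes tested, 5.7% passed and 17.9% had an unadjusted p under 0.05. Of 8 inhibitors 3 had an unadjusted p under 0.05, and 1 fell past the threshold, where 2.68% of all genes tested did. It was btg1, with 2224 and 1736 CPM in mCherry+, against 3556 and 2387 in mCherry- (log2 fold change -0.61, SE 0.165, edgeR adjusted p 0.049). Both mCherry+ sums lay below both mCherry- sums, as for 21.4% of all genes tested. Over 10 alternatives the adjusted p ranged between 0.013 and 0.626, the value of the DESeq2 test, and passed in 4, while the log2 fold change stayed between -0.64 and -0.51. DESeq2 called none of the 7 inhibitors and 1 other G2/M gene to which it gave an adjusted p, gave none to the other S-phase genes and the G1 regulator, and had 0 genes of the 4 lists at an unadjusted p under 0.05.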

How the data were processed

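Poly(A) RNA of single sorted cells was counted by SORT-seq on 2 plates of 384 wells. Per the labels, the authors' processing used BWA and Seurat with the genome build GRCz11, and no versions are given in the sources used here. The deposited values are expected counts, not normalized, in which the authors had adjusted the UMIs of each gene for tags drawn more than once. All values matched the formula for tags of 6 bases to within 0.005, so whole UMIs were recovered and used for levels, shares and thinning. Spike-ins (1.13% of counts) were set aside. No genome of this build was given, so no coordinates or sequences are printed. Of 22342 identifiers, 17425 had a symbol in the name table.

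The members and lists were chosen with earlier results of these data known. Wells with at least 500 UMIs and 200 genes were kept. The 2000 most variable genes without the 114 matched cell cycle genes gave 30 principal components, 15 neighbors and Leiden clusters at resolution 1 (scanpy 1.11.5, leidenalg 0.10.2), with no plate or doublet correction. The naming rule was settled after the data were seen. A cluster took the type with the largest share of markers raised by at least 1 in mean log2(CPM + 50), with at least 3 raised. It was left unnamed if it was shallow and none of its leading genes was a marker of that type. It was also left unnamed if its leading genes held more markers of another type.

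For tests, deposited values were summed over the wells of a gate on a plate, rounded, filtered with filterByExpr and TMM-scaled, and mCherry+ was compared with mCherry- by the edgeR 4.0.16 quasi-likelihood test (R 4.3.3), blocked by plate, and Benjamini-Hochberg adjustment at 0.05 over all genes tested. The code was tested on simulated data. Fold changes of single plates have no test. Members with at least 50 UMIs are given by sum, and genes of other lists only when past the threshold. An exception was the rrm2 identifier ENSDARG00000078069, with 31 UMIs, which is also given by sum. Alternatives were DESeq2 1.42.0, no filter, no block, other well minimums, thinned wells, wells or classes left out, other cycling minimums and other clusterings. Each kept set held 983833 to 1952888 corrected UMIs. Intervals cover counting error only.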

Additional observations from a re-analysis of the deposited data

Results flagged for a closer look

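Wells under the minimum depth were left out of every comparison but still held member UMIs. Over 234 such wells with 42353 UMIs, S-phase members came to 873.61 CPM (37 UMIs in 32 wells, exact Poisson interval 615 to 1204) and G2/M members to 613.888 (26 UMIs in 24 wells, 401 to 899). Over all kept wells the rates were 732 CPM for S phase, inside the interval of the wells under the minimum, and 828 CPM for G2/M, above their rate and inside their interval. Macrophage-like wells had 449 for S phase, below the S-phase interval of the wells under the minimum, and 527 for G2/M, inside their G2/M interval.

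Rows outside the rule carried related symbols in the human style. STMN1, a tubulin-binding protein, had 2 identifiers: ENSDARG00000004169 with 597 UMIs and ENSDARG00000033655 with 134, of which 76 were in 1 well. BIRC5, the survivin subunit of the chromosomal passenger complex, had 188 UMIs on ENSDARG00000075621. The first STMN1 identifier had 401 CPM in cluster 8 and 373 in cluster 3, against 18.6 in macrophage-like wells, and BIRC5 had 47.8, 83.5 and 23.9 in the same order. Whether they are the stmn1a and birc5a of the member list was not resolved here. These rows were not left out of the clustering that gave the classes.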

How the results depend on the processing

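No member was called between gates under any alternative over all kept wells. In macrophage-like wells 1 member, top2a, was called without the well richest in member UMIs in each sum and without the 5 wells richest in G2/M UMIs, with log2 fold changes of -1.94 and -2.71; leaving out these 5 wells, or clusters 3 and 8, was chosen after seeing the data. The number of genes called over all kept wells was 1102 with no filter, 57 with no replicate block, 163 with wells thinned to 2000 UMIs and 43 without the muscle-like wells, against 470. In macrophage-like wells it was 95 with DESeq2, 80 with no replicate block, 491 with wells of at least 2000 UMIs and 68 with thinned wells, against 302. The plates pair the gates by design, and without this block the members called stayed at 0. The S-phase median was -0.11 over all wells without clusters 3 and 8, and in macrophage-like wells it was -0.017 with no filter, -0.43 with thinned wells and -0.35 with a clustering that keeps the cell cycle genes. The signs turned for top2a over all wells when thinned (0.57), for hmgb2b over all wells without clusters 3 and 8 (-0.082), and for pcna in macrophage-like wells when thinned (-0.43) and without the 5 wells (-0.018).

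Leaving out a plate gave values with no test: mki67 from -0.73 to 1.22, top2a from -1.67 to 0.64 and hmgb2b from -0.26 to 0.64 over all wells, and in macrophage-like wells mki67 from -1.80 to 1.26, top2a from -2.06 to 0.51 and the S-phase median from -0.29 to -0.18.

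Cycling shares follow the depth and the minimum chosen. The mean of mCherry+ was 57.7% with no thinning, and that of mCherry- was 47.4% with no thinning, 38.3% at 5000 UMIs, 13.0% at 1000 UMIs and 16.2% with at least 5 UMIs. Median scores of mCherry- became 0 for both lists in thinned wells, and 0 for G2/M without hmgb2b. The causes were not tested. No other class had 10 wells in each gate on each plate, so its test was not run. The smallest difference between gates that 2 plates could show was not measured.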
